A study of Drosophila melanogaster with 40 samples.

Results

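Cuticle proteins of the Cpr family were followed in the legs of male Drosophila melanogaster. Members were the protein-coding genes of the deposited count table whose symbol starts with Cpr and a number, with Lcp and a number, or with Ccp84A. There were 92 of them among 23932 features, of which 13968 were protein coding. Another 2 features with matching symbols are annotated as pseudogenes and were not members. Cpr proteins carry the Rebers and Riddiford motif, a domain that binds chitin, and with chitin they make up the layered cuticle that epidermal cells secrete at their apical side. Most symbols give the cytological band of the gene and a letter. The Lcp genes were first described in larval cuticle, and Cpr66D and Cpr72Ec are known as components of the corneal lens of the eye.

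All flies carried the white allele w1118. The control strain was w1118 itself. Flies of the other strain, Hsp70-null, also carried the deletions Df(3R)Hsp70A and Df(3R)Hsp70B, which remove 6 Hsp70 genes. The strains came from different stock centres, so the deletions and other differences between the stocks cannot be told apart. Untreated flies of both strains were sampled at 7, 23 and 47 days after eclosion. A further group of each strain was sampled at day 7 right after exercising for 2 h. The last group of each strain came from day 23, 24 h after the end of 19 days of training (day 4 to day 22) in tubes turned every 15 s. This gave 10 groups of 4 pools, with the legs of 15 flies in a pool, and 40 libraries of polyadenylated RNA.

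Total counts were 21955858 to 30076080 per library at days 7 and 23 and 35144736 to 39313671 at day 47, so day 47 and greater depth cannot be told apart. The 5 deleted genes other than Hsp70Bb held 11 reads in all 20 Hsp70-null libraries (0 to 2 per library) and 14 to 366 reads in each w1118 library. Hsp70Bb, the sixth gene, held 1149 reads in w1118 and 1283 in Hsp70-null, so its counts do not follow the deletion and the other 5 do. The deleted genes lie on 3R at 11954163 to 12511461 (BDGP6.54), and the nearest member, Ccp84Aa, is 5.25 Mb away. All 14 leg muscle markers had a median of at least 1 CPM, and so did 7 leg identity genes. Some libraries stood apart in markers of other tissues. The sum of 16 male accessory gland genes ran from 0.201 to about 2000 CPM (median 1.22 CPM). That of 18 gut genes ran from 70.5 to 28100 CPM (median 1980 CPM). No fit left out libraries for these sums. The 14 photoreceptor genes summed to over 10 times their median of 247 CPM in 3 Hsp70-null libraries, where the sums were 3430 to 13830 CPM. All 22 testis genes together summed to 2010 to 4300 CPM, and no library was over 10 times the median of that sum. The 17 of them with a median under 1 CPM passed 10 times their own median sum in 5 libraries, 4 of w1118 and 1 of Hsp70-null. Their sums were 32.2 to 1178 CPM in these and at most 22.6 CPM in the other 35, so the lowest of the 5 stood close to the rest.

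The family was a small part of the leg transcriptome, and few members made up most of it. Its 906695 reads were 0.0818% of all reads. Cpr65Au alone held 37.5% of them, the 5 highest members 83.4% and the 8 highest 92.5%. Per kb of annotated exon, Cpr65Au had a mean of 599.7 (lowest 164, median 579, highest 915) CPM per kb over 40 libraries, and no library put another member as high as the Cpr65Au median. Cpr62Bb followed at 130.4 (lowest 57.7, median 133, highest 220.1) CPM per kb, Cpr67B at 78.4 (lowest 47.4, median 76.2, highest 113) CPM per kb and Cpr47Ef at 53.7 (lowest 9.39, median 51.1, highest 134) CPM per kb. The ranges of these 3 overlapped. Cpr49Ae at 23.3, Cpr57A at 20.5, Cpr73D at 17.2 and Cpr66D at 14.1 CPM per kb came next, again with overlapping ranges. CPM here are counts scaled to library size, with trimmed means of M values as scaling factors. Over the longest transcript in place of all exons, the 6 highest members had the same ranks.

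**Figure D1:**
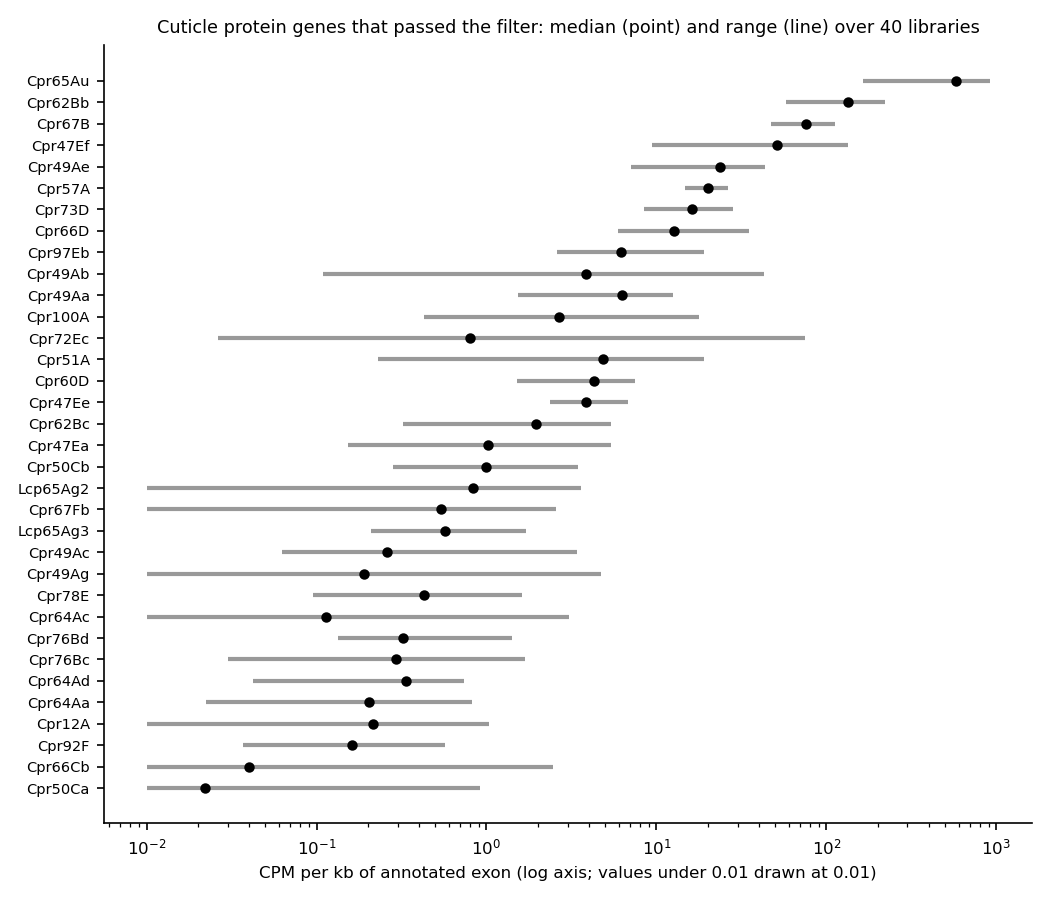
Level of the 34 members that passed the expression filter, as CPM per kb of annotated exon on a log axis, with the median over 40 libraries as a point and the range as a line. Cpr65Au stands above the rest at a median of 579 CPM per kb, and the lines of several low members reach the left end, where values under the first labelled tick are drawn.

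Neighbouring members differed widely in level. The 65A cluster (3L, 6130386 to 6161589) holds 17 members, which held 37.6% of family reads, nearly all of them of Cpr65Au. Only 3 of the 17 reached 100 reads in the 40 libraries together. The 7 members of the 84A cluster had 128 reads together, and the larval genes Lcp1 to Lcp4 had 224. In contrast the 3 members of 62B gave 16.1% and the 7 of 47E gave 15.1% of family reads. No read was counted for 7 members (Lcp65Aa, Lcp65Ab1, Lcp65Ab2, Cpr65Av, Cpr65Ax1, Cpr65Ax2 and Cpr64Ab), which allows a level of up to 0.00271 CPM over all libraries. Lcp65Ab1 and Lcp65Ab2 are near-identical copies, as are Cpr65Ax1 and Cpr65Ax2, and how reads that map to several places were counted is not given in the sources used here, so these zeros are uncertain. The same holds for the levels of Lcp65Ag1, Lcp65Ag2 and Lcp65Ag3.

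A filter on low counts left 34 members for testing, with 99.76% of the family reads. Some low members, among them Cpr66Cb, Cpr64Ac and Cpr50Ca, passed it only through the strain where they were high. Their strain calls are not independent of the filter, and they are in the counts of calls below. The other 58 members had 0 to 245 reads each. Some had most of their reads in few libraries. Cpr11B had 245 reads, of which 71 came from Hsp70-null day 7 replicate 4 and 71 from trained Hsp70-null day 23 replicate 1, and no other library had more than 8. Both are libraries with high photoreceptor markers. Cpr56F had 147 reads, of which 40, 35 and 33 came from trained w1118 replicate 1, Hsp70-null day 7 replicate 2 and exercised w1118 replicate 1, and no other library had more than 6. All 3 are libraries with high testis markers. Cpr11A had 51 of its 146 reads in Hsp70-null day 47 replicate 2. Ccp84Ad had 34 reads, with 14 in exercised w1118 replicate 3 and 16 in trained Hsp70-null replicate 2, and Cpr65Ec had 14 of its 30 reads in Hsp70-null day 7 replicate 2. The 2 libraries with the most Ccp84Ad reads had the highest sums of 16 male accessory gland markers, at 1995 and 998 CPM against a median of 1.22 CPM over the 40 libraries. The part of other tissues in these reads was not tested. Some members share sequence with other genes. Cpr57A and Obp57d have the same exons on the same strand and the same 34641 reads, so which gene they come from is uncertain. Cpr65Au lies opposite asRNA:CR46005 over 93.3% of its exons, but that RNA had 561 reads against 339695, in libraries that keep the strand. Lcp65Ag3, with 381 reads, lies opposite the same RNA over all its exons. Cpr67Fb lies opposite asRNA:CR45171 over 85.1% of its exons, with 320 reads against 1134. Whether the counting used the strand is not given in the sources used here.

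The strains were compared at each age and after each treatment. The share of members called was above that of all features in each comparison, but at day 7 the gap was small. More members were called higher than lower in Hsp70-null. At day 7, 11 of 34 members (32.4%) were called, 8 higher and 3 lower, against 25.8% of the 12939 features tested (15.8% higher and 9.99% lower). At day 23 the count was 13 (38.2%), 8 higher and 5 lower, against 17.8% (8.78% higher and 9% lower). At day 47 it was 15 (44.1%), 11 higher and 4 lower, against 19.4% (9.93% higher and 9.49% lower). Among exercised flies 14 (41.2%) were called, 8 higher and 6 lower, against 20.2% (8.95% higher and 11.2% lower). Among trained flies it was 10 (29.4%), 7 higher and 3 lower, against 15.6% (8.41% higher and 7.17% lower). A call is an adjusted p under 0.05 in edgeR's quasi-likelihood test. The median log2 fold change over the 34 members was 0.08, −0.03 and 0.40 at days 7, 23 and 47, against 0.01, −0.01 and −0.03 over all features, with members on both sides of 0. In whole legs, fewer epidermal cells and less RNA per cell cannot be told apart.

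Of the 34 members, 26 had a call in at least 1 of the 5 strain comparisons. Among these, 15 were called only higher in Hsp70-null, 10 only lower and 1, Cpr62Bc, in both directions. The 8 members with no strain call were Cpr65Au, Cpr67B, Cpr73D, Cpr49Ab, Cpr49Ag, Cpr67Fb, Cpr78E and Lcp65Ag3, among them 3 of the 5 highest by CPM. Cpr65Au differed between strains by a log2 fold change of −0.04, −0.52 and −0.01 at the 3 ages (edgeR adjusted p = 0.926, 0.0882 and 0.984).

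**Figure D2:**
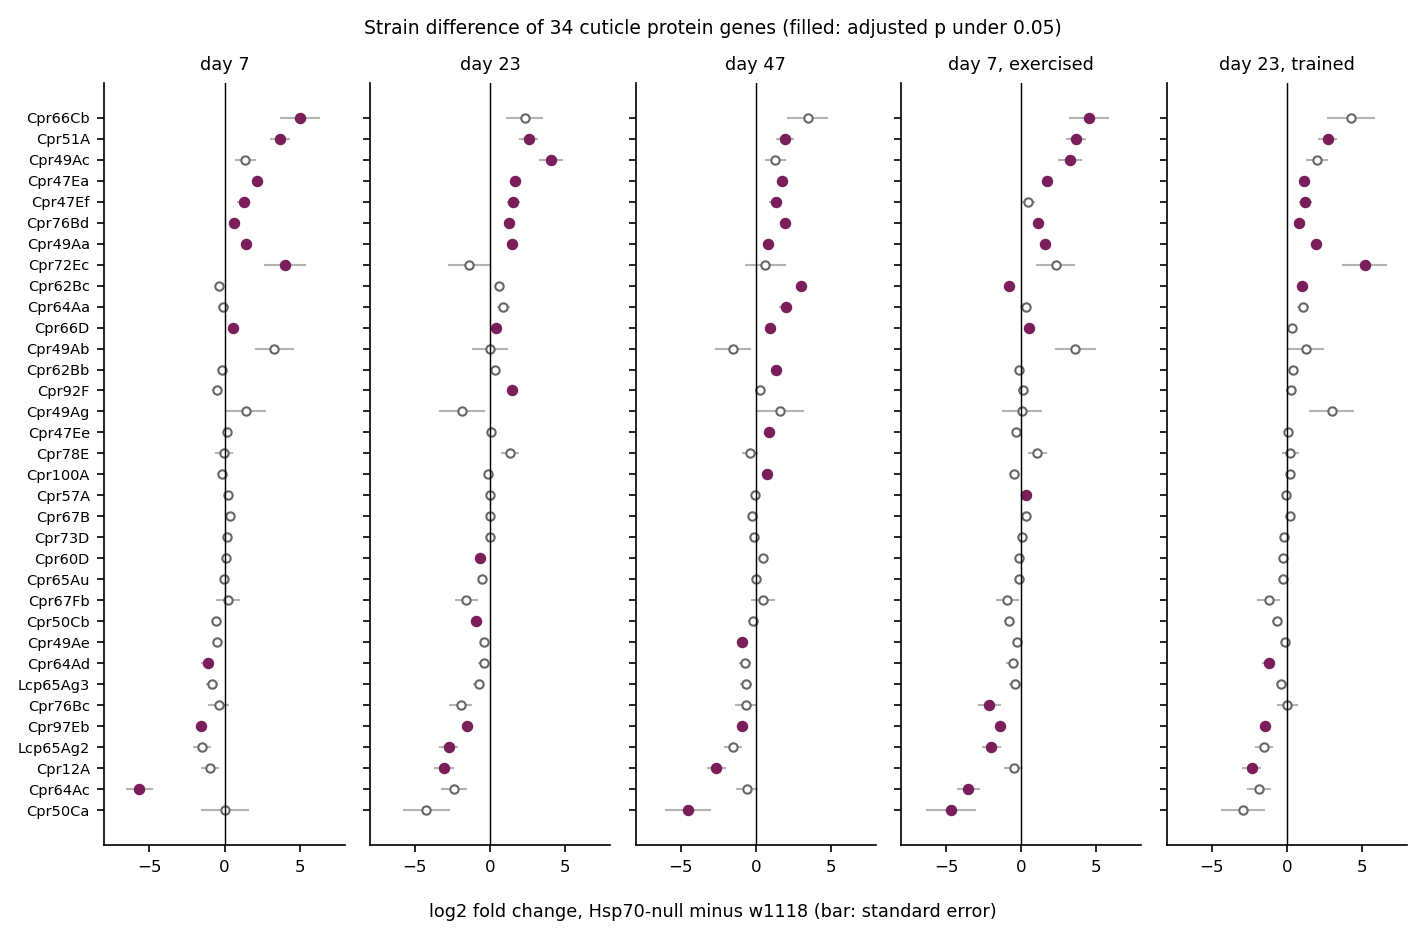
Log2 fold change of Hsp70-null minus w1118 for the 34 tested members in the 5 strain comparisons, ordered by the mean over the 3 untreated ages, with the standard error as a bar and called members as filled points. Cpr51A, Cpr47Ea, Cpr76Bd and Cpr49Aa are filled on the right in all 5 panels and Cpr97Eb on the left.

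Called with 1 sign at all 3 ages were 7 members (20.6%), against 8.1% of all features (4.02% higher and 4.08% lower). Of these, 6 were higher in Hsp70-null (Cpr47Ef, Cpr66D, Cpr49Aa, Cpr51A, Cpr76Bd and Cpr47Ea) and Cpr97Eb was lower. Cpr97Eb, Cpr49Aa, Cpr51A, Cpr76Bd and Cpr47Ea were called the same way after exercise and after training too (14.7%, against 6.69% of all features, 3.39% higher and 3.3% lower). The count at all 3 ages was 4 with no expression filter, and 4 when each comparison was fitted on its own groups.

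Cpr97Eb (3R, 27089704 to 27091130, minus strand) was the one member called lower in Hsp70-null in every comparison. In w1118 pools Cpr97Eb was at 16.5, 15.6, 17.8 and 19.1 CPM at day 7, 11.7, 13.7, 12.8 and 10.7 CPM at day 23 and 10.7, 10.8, 9.46 and 5.63 CPM at day 47. In Hsp70-null pools Cpr97Eb was at 6.80, 5.27, 4.81 and 6.32, then 4.80, 6.25, 3.12 and 2.73, then 5.56, 4.96, 4.13 and 4.85 CPM at the same days. Each Hsp70-null pool was below each w1118 pool of its age, with the narrowest gap at day 47, where w1118 replicate 4 stood low. Exercised pools held Cpr97Eb at 13.5, 20.0, 13.6 and 12.8 CPM in w1118 and 5.22, 5.40, 5.89 and 5.96 CPM in Hsp70-null, and in trained pools it was at 10.8, 10.9, 11.4 and 10.3 CPM in w1118 and 3.52, 5.22, 3.36 and 3.92 CPM in Hsp70-null. The strain difference was a log2 fold change of −1.57 (SE 0.20, edgeR adjusted p = 3.92e-07), and a log2 fold change of −1.53 at day 23 and −0.91 at day 47 (edgeR adjusted p = 6.48e-07 and 0.000929). It was −1.41 and −1.44 after exercise and training, with no overlap in either.

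Cpr51A (2R, 14512559 to 14515211, minus strand) had the largest strain difference of the 7 at days 7 and 23, and was under 0.5 CPM in each w1118 pool of day 7. In w1118 pools Cpr51A was at 0.203, 0.186, 0.392 and 0.414 CPM at day 7, 1.87, 0.895, 0.1503 and 1.17 CPM at day 23 and 3.28, 0.267, 3.00 and 1.37 CPM at day 47. In Hsp70-null pools Cpr51A was at 3.84, 4.99, 3.64 and 3.05, then 4.87, 4.86, 5.96 and 8.61, then 5.35, 3.95, 12.4 and 8.79 CPM at the same days. The w1118 pools stayed below all Hsp70-null pools of their age, and they spread widely at days 23 and 47. After exercise at day 7, Cpr51A was at 0.979, 0.222, 0.292 and 0.151 CPM in w1118 and 4.86, 3.42, 4.87 and 7.82 CPM in Hsp70-null, and in trained pools it was at 0.582, 0.326, 1.68 and 1.62 CPM in w1118 and 9.48, 6.16, 5.65 and 6.27 CPM in Hsp70-null. The difference was a log2 fold change of 3.68 (SE 0.68, edgeR adjusted p = 0.000135), and it was 2.56 at day 23 and 1.94 at day 47 (edgeR adjusted p = 0.00322 and 0.0205). For day 47, leaving out w1118 replicates 2 or 4 or Hsp70-null replicate 3 ended the strain call (adjusted p from 0.0643 to 0.0823).

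Cpr47Ea (2R, 11251751 to 11253398, minus strand) was a low member with no overlap between the strains in any of the 5 comparisons. In w1118 pools Cpr47Ea was at 0.567, 0.650, 0.588 and 0.782 CPM at day 7, 0.393, 0.128, 0.564 and 0.364 CPM at day 23 and 0.320, 0.170, 0.341 and 0.342 CPM at day 47. In Hsp70-null pools Cpr47Ea was at 2.88, 4.04, 2.34 and 2.54, then 1.28, 1.32, 0.933 and 1.02, then 1.22, 1.15, 0.915 and 0.730 CPM at the same days. The lowest Hsp70-null pool of each age was above the highest w1118 pool, and among untreated pools both strains were highest at day 7. Exercise at day 7 gave Cpr47Ea levels of 0.712, 0.754, 0.972 and 1.10 CPM in w1118 and 2.67, 4.46, 2.24 and 2.41 CPM in Hsp70-null, and in trained pools it was at 0.547, 0.587, 0.516 and 0.472 CPM in w1118 and 1.02, 0.775, 1.07 and 1.86 CPM in Hsp70-null. The strain difference was a log2 fold change of 2.18 (SE 0.32, edgeR adjusted p = 4.18e-06), and 1.64 and 1.76 at days 23 and 47 (edgeR adjusted p = 0.000232 and 8.70e-05). After training, leaving out Hsp70-null replicate 4 ended the strain call (adjusted p = 0.0746).

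Cpr47Ef (2R, 11266915 to 11272575, minus strand), in the same cluster, was among the most abundant members and the one of the 6 highest that varied most, from 20.6 to 294 CPM. In w1118 pools Cpr47Ef was at 68.2, 64.9, 55.1 and 62.3 CPM at day 7, 67.1, 20.8, 78.8 and 86.9 CPM at day 23 and 85.4, 76.9, 58.9 and 20.6 CPM at day 47. In Hsp70-null pools Cpr47Ef was at 237, 114, 156 and 100.4, then 192, 129.8, 204 and 209.8, then 147, 142, 159 and 164 CPM at the same days. Hsp70-null pools were above w1118 pools at each age, and w1118 replicate 2 of day 23 and replicate 4 of day 47 were the lowest. For exercised flies Cpr47Ef read 75.5, 104, 147 and 116 CPM in w1118 and 142, 144, 179.9 and 146 CPM in Hsp70-null, and in trained pools it was at 45.4, 41.6, 132 and 68.7 CPM in w1118 and 111, 57.7, 294 and 213 CPM in Hsp70-null. The exercised groups overlapped and were not called (log2 fold change 0.46, edgeR adjusted p = 0.476). At day 23 the difference was a log2 fold change of 1.54 (SE 0.43, edgeR adjusted p = 0.00943), against 1.28 at day 7 and 1.34 at day 47 (edgeR adjusted p = 0.0280 and 0.0222). At day 7 leaving out w1118 replicates 1, 2, 3 or 4 or Hsp70-null replicate 1 ended the strain call (adjusted p from 0.0579 to 0.0940), and at day 47 leaving out w1118 replicates 3 or 4 or Hsp70-null replicate 4 ended the strain call (adjusted p from 0.0508 to 0.0902). The trained groups overlapped too, and there leaving out w1118 replicates 1, 2 or 4 or Hsp70-null replicates 3 or 4 ended the strain call (adjusted p from 0.0947 to 0.242).

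Cpr49Aa (2R, 12376626 to 12377378, plus strand) was higher in Hsp70-null with no overlap in any of the 5 comparisons. In w1118 pools Cpr49Aa was at 1.46, 1.39, 1.68 and 2.21 CPM at day 7, 1.74, 2.43, 1.47 and 2.06 CPM at day 23 and 3.20, 4.44, 4.80 and 2.33 CPM at day 47. In Hsp70-null pools Cpr49Aa was at 6.67, 3.45, 4.07 and 3.82, then 5.48, 5.32, 4.91 and 4.97, then 5.20, 7.15, 7.19 and 6.78 CPM at the same days. No Hsp70-null pool fell to the highest w1118 pool of its age, and the gap was narrowest at day 47. Cpr49Aa after exercise was at 1.33, 1.95, 2.82 and 1.36 CPM in w1118 and 4.59, 6.39, 6.47 and 5.23 CPM in Hsp70-null, and in trained pools it was at 0.889, 0.946, 2.41 and 1.35 CPM in w1118 and 3.49, 5.22, 7.35 and 5.32 CPM in Hsp70-null. The difference was a log2 fold change of 1.94 (SE 0.29, edgeR adjusted p = 7.30e-06) among trained flies, and 1.42 at day 7, 1.42 at day 23 and 0.83 at day 47 (edgeR adjusted p = 0.000458, 0.000379 and 0.0331). At day 47 leaving out w1118 replicates 1 or 4 or Hsp70-null replicates 2, 3 or 4 ended the strain call (adjusted p from 0.0697 to 0.129).

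Cpr76Bd (3L, 19532743 to 19538289, plus strand) had a larger strain difference at each later age. In w1118 pools Cpr76Bd was at 1.54, 1.11, 1.06 and 1.24 CPM at day 7, 0.688, 1.15, 0.864 and 0.931 CPM at day 23 and 1.43, 1.07, 1.34 and 1.44 CPM at day 47. In Hsp70-null pools Cpr76Bd was at 2.75, 1.18, 2.08 and 1.63, then 2.12, 2.07, 2.07 and 2.28, then 6.39, 6.13, 4.65 and 3.18 CPM at the same days. The strains overlapped at day 7, were apart at day 23 and were farthest apart at day 47, where the 4 Hsp70-null pools spread from 3.18 to 6.39 CPM. Exercised pools held Cpr76Bd at 0.668, 0.976, 0.632 and 0.603 CPM in w1118 and 1.71, 1.38, 1.61 and 1.64 CPM in Hsp70-null, and in trained pools it was at 1.27, 1.37, 1.16 and 1.48 CPM in w1118 and 1.83, 2.37, 2.05 and 3.14 CPM in Hsp70-null. The strain difference was 0.62 at day 7 (edgeR adjusted p = 0.0396), 1.23 at day 23 (edgeR adjusted p = 0.000123), and at day 47 it was a log2 fold change of 1.94 (SE 0.23, edgeR adjusted p = 7.10e-08). At day 7 leaving out w1118 replicates 2, 3 or 4 or Hsp70-null replicates 1 or 3 ended the strain call (adjusted p from 0.0725 to 0.201), and after training leaving out Hsp70-null replicate 4 did (adjusted p = 0.0590).

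Cpr66D (3L, 8640439 to 8643584, plus strand), a corneal lens protein, was higher in Hsp70-null and rose with age in both strains. In w1118 pools Cpr66D was at 7.21, 6.59, 9.13 and 7.32 CPM at day 7, 12.0, 15.3, 11.6 and 12.5 CPM at day 23 and 18.7, 20.6, 16.01 and 19.1 CPM at day 47. In Hsp70-null pools Cpr66D was at 10.99, 10.5, 12.2 and 11.04, then 20.7, 18.0, 14.6 and 14.2, then 33.6, 36.6, 32.9 and 38.9 CPM at the same days. All pools of day 47 were above all pools of day 7 in each strain, and the 4 Hsp70-null pools of day 47 were the highest of the 40 libraries. After exercise at day 7, Cpr66D was at 8.501, 8.34, 9.91 and 10.6 CPM in w1118 and 12.7, 14.8, 14.4 and 11.5 CPM in Hsp70-null, and in trained pools it was at 11.4, 14.3, 15.2 and 13.0 CPM in w1118 and 13.7, 14.7, 19.8 and 21.0 CPM in Hsp70-null. The strain difference was 0.57 at day 7 and 0.40 at day 23 (edgeR adjusted p = 0.00288 and 0.0380), and at day 47 it was a log2 fold change of 0.93 (SE 0.13, edgeR adjusted p = 3.15e-06). The day 23 groups overlapped, and leaving out w1118 replicates 1, 3 or 4 or Hsp70-null replicates 1 or 2 ended the strain call (adjusted p from 0.0799 to 0.197). Photoreceptor markers at day 47 summed to 82.0 to 1231 CPM in Hsp70-null and 70.7 to 154 CPM in w1118, and at day 7 to 374 to 8022 and 193 to 448 CPM.

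**Figure D3:**
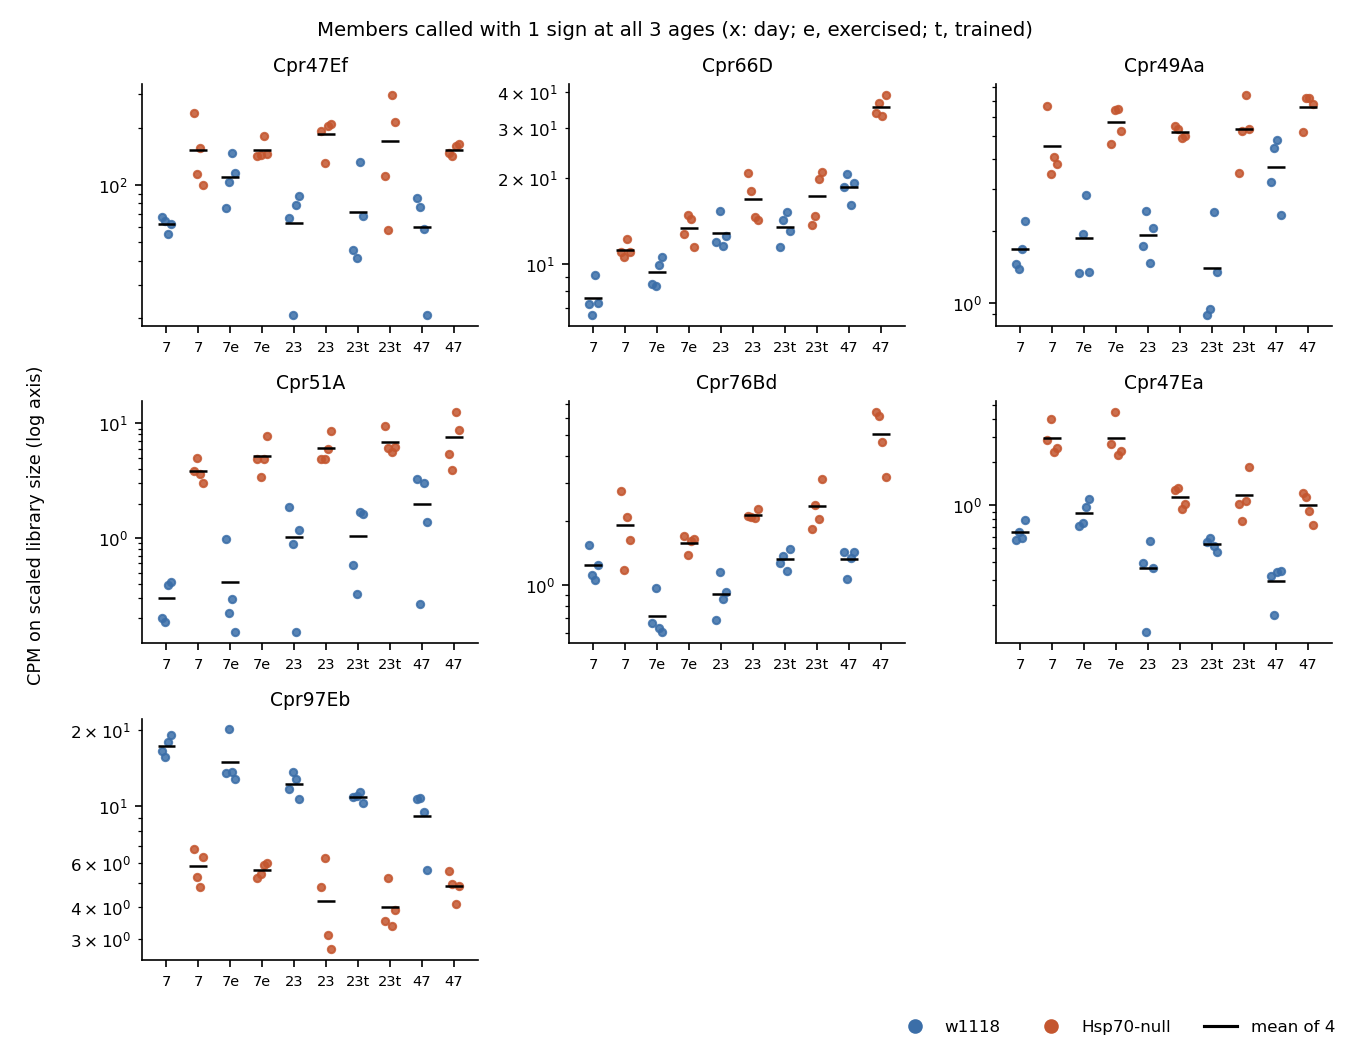
CPM in each of the 40 libraries on a log axis for the 7 members called with 1 sign at all 3 ages, with w1118 in blue, Hsp70-null in orange and a line at the mean of 4 pools. Cpr97Eb is lower in orange in all 5 pairs of groups, and Cpr51A and Cpr47Ea are higher in orange with no overlap.

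Other members were called at 1 or 2 ages or in treated flies. Cpr64Ac (3L, 4211964 to 4212915, minus strand) was detected above 1 CPM in w1118 at day 7 and in no other untreated group: it was at 2.71, 1.90, 1.57 and 1.38 CPM and 0.0436, 0, 0 and 0.0859 CPM in Hsp70-null. Exercised flies showed the same split, at 1.38, 2.66, 1.31 and 1.36 and 0.222, 0.0551, 0.195 and 0.0910 CPM. At day 23 the 8 untreated pools were at 0 to 0.263 CPM and at day 47 at 0 to 0.170 CPM. At day 7 this was 178 reads against 3, a ratio of 58.0 per scaled library size with a 95% binomial counting interval of 19.5 to 284 (edgeR adjusted p = 2.07e-05). Cpr64Ac passed the expression filter only through w1118 libraries, so its strain calls are not independent of the filter. Its neighbour Cpr64Aa was at 0.590 ± 0.192 and 0.560 ± 0.108 CPM at day 7 (SD, n = 4 each) and was not called there (log2 fold change −0.07, edgeR adjusted p = 0.914), while Cpr64Ab between them had no read at all.

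Cpr66Cb (3L, 8336672 to 8338595, plus strand) was the reverse case, with reads in Hsp70-null at day 7 and next to none in w1118. Only Hsp70-null libraries of day 7 carried it over the expression filter, so its strain calls are not independent of the filter. Read counts were 13, 54, 7 and 3 in the 4 Hsp70-null pools and 0, 0, 0 and 2 in the w1118 pools. This was 77 reads against 2, a ratio of 39.4 per scaled library size with a 95% binomial counting interval of 10.5 to 331, and edgeR gave an adjusted p of 0.00738. Exercised flies had 14, 21, 14 and 4 reads against 0, 1, 0 and 1. Replicate 2 of Hsp70-null held most of the day 7 reads and had high testis markers. Without it the log2 fold change was 3.68, against 5.04 with it, and was no longer called (adjusted p = 0.0548, edgeR).

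At day 23, Cpr49Ac was at 0.302, 1.68, 6.21 and 7.25 CPM in Hsp70-null and 0.230, 0.170, 0.1503 and 0.364 CPM in w1118 (log2 fold change 4.05, SE 0.81, edgeR adjusted p = 0.000360). Hsp70-null replicates 3 and 4 were high, and replicate 1 overlapped w1118. Cpr12A was lower in Hsp70-null at days 23 and 47: at day 47 it was at 0.0903, 0.0732, 0.0261 and 0.156 CPM against 0.444, 0.534, 0.887 and 0.342 CPM in w1118, with no overlap (log2 fold change −2.61, SE 0.63, edgeR adjusted p = 0.00260). Lcp65Ag2, a near-identical copy of its neighbours, was at 0.264, 0.429, 0.243 and 0 CPM at day 23 against 1.25, 1.70, 1.54 and 1.94 CPM (log2 fold change −2.75, SE 0.63, edgeR adjusted p = 0.00158). Cpr50Ca was called lower at day 47 and after exercise, with 2 high pools of w1118 at day 47: it was at 2.59, 0.0243, 2.32 and 0.0228 CPM in w1118 and 0 to 0.122 CPM in Hsp70-null at day 47, so the groups overlapped. No Hsp70-null library was over 0.129 CPM. Cpr50Ca thus passed the expression filter only through w1118 libraries, and its strain calls are not independent of the filter. At day 47 leaving out w1118 replicates 1 or 3 or Hsp70-null replicates 1, 3 or 4 ended the strain call (adjusted p from 0.0854 to 0.107), and among exercised flies leaving out w1118 replicate 3 or Hsp70-null replicates 1, 2, 3 or 4 ended the strain call (adjusted p from 0.0848 to 0.772).

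The smaller calls were these. At day 23, Cpr92F was higher in Hsp70-null (log2 fold change 1.48, edgeR adjusted p = 0.00358), and Cpr60D (−0.67) and Cpr50Cb (−0.97) were lower, with edgeR adjusted p-values of 0.0112 and 0.0299. At day 47, Cpr47Ee (0.86), Cpr100A (0.77) and Cpr64Aa (2.01) were higher on the log2 scale and Cpr49Ae (−0.91) was lower. Cpr64Ad was called lower at day 7 (−1.12) and after training (−1.22), and the day 7 call was lost without any 1 of the 8 libraries (adjusted p from 0.0548 to 0.151). After training leaving out w1118 replicates 1, 2, 3 or 4 or Hsp70-null replicates 1, 2 or 4 ended the strain call (adjusted p from 0.0645 to 0.193). Among exercised flies Cpr76Bc (−2.12) was lower and Cpr57A (0.34) higher. The first call was lost without any 1 of the 8 libraries (adjusted p from 0.05003 to 0.118) and the second without w1118 replicates 1, 2, 3 and 4 and Hsp70-null replicates 1, 2 and 3 (adjusted p from 0.0502 to 0.140). For Cpr50Cb at day 23 leaving out w1118 replicates 2 or 3 or Hsp70-null replicates 3 or 4 ended the strain call (adjusted p from 0.0603 to 0.130). For Cpr49Ae at day 47 leaving out w1118 replicates 1 or 3 ended the strain call (adjusted p from 0.0586 to 0.0672), and for Cpr100A leaving out w1118 replicate 4 ended the strain call (adjusted p = 0.0632). Lcp65Ag2 was also called lower among exercised flies, where leaving out Hsp70-null replicates 1 or 3 ended the strain call (adjusted p from 0.0700 to 0.0895).

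Age was examined within each strain in untreated flies. Most members called between days 7 and 47 had fallen. From day 7 to day 47, 19 of 34 members (55.9%) were called in w1118, 14 lower and 5 higher, against 37.6% of all features (18.5% lower and 19.2% higher). In Hsp70-null it was 14 (41.2%), 11 lower and 3 higher, against 28.9% (14.9% lower and 14% higher). The median log2 fold change over the members was −0.69 in w1118 and −0.44 in Hsp70-null, against 0.07 and −0.02 over all features. Between days 7 and 23, 10 members were called in each strain, 2 higher and 8 lower in w1118 (11.1% of all features, 4.84% higher and 6.21% lower) and 1 higher and 9 lower in Hsp70-null (17.3%, 7.37% higher and 9.89% lower). Between days 23 and 47 the counts were 8 in w1118, 3 higher and 5 lower (13.4%, 6.07% higher and 7.31% lower), and 7 in Hsp70-null, 5 higher and 2 lower (3.6%, 1.64% higher and 1.96% lower). When each comparison was fitted on its own groups, 3 members were called in place of 8 from day 23 to 47 in w1118 and 3 in place of 10 from day 7 to 23 in Hsp70-null. The summed level of 18 gut markers moved with age: over the 4 untreated pools it was 115.1 to 1947, 437 to 6614 and 2705 to 28100 CPM at days 7, 23 and 47 in w1118, and 230.5 to 2014, 916 to 12010 and 3708 to 12120 CPM in Hsp70-null. Its part in the age results was not tested.

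Called the same way in both strains from day 7 to 47 were 10 members (29.4%, against 19.5% of all features, 10.1% higher and 9.31% lower): Cpr65Au, Cpr73D, Cpr49Ae, Cpr100A, Cpr47Ea, Cpr50Cb, Cpr49Ag, Cpr92F and Cpr64Aa lower, and Cpr66D higher. The count was 6 without w1118 day 47 replicate 4. Between days 7 and 23, 6 members were shared (17.6%, against 4.5%, 1.62% higher and 2.88% lower): Cpr62Bb, Cpr100A, Cpr47Ee, Cpr50Cb and Cpr64Aa lower, and Cpr66D higher. For Cpr64Aa leaving out Hsp70-null day 7 replicate 2 or Hsp70-null day 23 replicates 2 or 4 ended the Hsp70-null call (adjusted p from 0.0510 to 0.0712), and for Cpr50Cb leaving out w1118 day 7 replicate 1 or w1118 day 23 replicate 4 ended the w1118 call (adjusted p from 0.0585 to 0.0693).

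Cpr100A (3R, 30867521 to 30869184, plus strand) had the largest fall among members with over 10 CPM in every untreated pool of day 7. In w1118 pools Cpr100A was at 24.5, 22.2, 15.2 and 14.3 CPM at day 7, 2.46, 2.98, 3.27 and 3.24 CPM at day 23 and 1.55, 1.21, 0.910 and 0.593 CPM at day 47. In Hsp70-null pools Cpr100A was at 21.8, 17.3, 14.4 and 15.3, then 2.57, 2.36, 2.35 and 3.60, then 1.85, 1.64, 2.06 and 1.72 CPM at the same days. Every pool of day 7 was above every later pool in both strains. Exercise at day 7 gave Cpr100A levels of 16.9, 20.5, 14.5 and 11.3 CPM in w1118 and 12.0, 12.1, 11.2 and 9.32 CPM in Hsp70-null, and in trained pools it was at 3.56, 2.77, 3.66 and 4.22 CPM in w1118 and 4.25, 3.67, 3.64 and 4.70 CPM in Hsp70-null. The change from day 7 to 47 was a log2 fold change of −4.15 (SE 0.24, edgeR adjusted p = 1.55e-14) in w1118 and −3.24 in Hsp70-null (edgeR adjusted p = 3.93e-12). The step to day 23 was −2.67 and −2.66, and a further step to day 47 was called in w1118 only (−1.48, and −0.58 in Hsp70-null). The test of the strain difference in the change from day 7 to 47 did not pass (0.91, edgeR adjusted p = 0.122).

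Cpr64Aa, Cpr50Cb and Cpr92F were low members that also fell. In w1118 pools Cpr64Aa was at 0.567, 0.836, 0.588 and 0.368 CPM at day 7, 0.0656, 0.170, 0.1503 and 0.0405 CPM at day 23 and 0.0246, 0.0243, 0.0227 and 0.0684 CPM at day 47. In Hsp70-null pools Cpr64Aa was at 0.610, 0.681, 0.433 and 0.516, then 0.340, 0.143, 0.203 and 0.114, then 0.181, 0.0732, 0.157 and 0.209 CPM at the same days. Day 7 did not overlap either later age in either strain. For exercised flies Cpr64Aa read 0.401, 0.443, 0.389 and 0.653 CPM in w1118 and 0.482, 0.661, 0.487 and 0.682 CPM in Hsp70-null, and in trained pools it was at 0.171, 0.0979, 0.0860 and 0.101 CPM in w1118 and 0.204, 0.367, 0.243 and 0.165 CPM in Hsp70-null. Between days 7 and 47 Cpr64Aa fell by 3.91 in w1118 and by 1.83 in Hsp70-null on the log2 scale (edgeR adjusted p = 2.26e-08 and 0.000795). At day 47 the 4 w1118 pools held 6 reads in all, against 55 at day 7.

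In w1118 pools Cpr50Cb was at 3.00, 2.51, 1.45 and 2.02 CPM at day 7, 0.852, 1.32, 1.31 and 0.526 CPM at day 23 and 0.567, 0.534, 0.477 and 0.456 CPM at day 47. In Hsp70-null pools Cpr50Cb was at 2.05, 1.54, 0.693 and 1.68, then 0.642, 0.571, 0.527 and 0.304, then 0.565, 0.244, 0.314 and 0.652 CPM at the same days. Both strains had their lowest pools at day 47, and no pool of that age reached the day 7 range. Cpr50Cb after exercise was at 2.23, 2.48, 2.33 and 1.76 CPM in w1118 and 1.52, 1.16, 1.36 and 0.864 CPM in Hsp70-null, and in trained pools it was at 0.889, 0.816, 0.946 and 0.978 CPM in w1118 and 0.669, 0.571, 0.451 and 0.619 CPM in Hsp70-null. Cpr50Cb fell by 2.13 in w1118 and 1.74 in Hsp70-null from day 7 to 47 (log2 scale, edgeR adjusted p = 3.69e-06 and 0.000106).

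In w1118 pools Cpr92F was at 1.05, 0.789, 0.627 and 0.506 CPM at day 7, 0.164, 0.170, 0.113 and 0.0809 CPM at day 23 and 0.0986, 0.146, 0.0682 and 0.0684 CPM at day 47. In Hsp70-null pools Cpr92F was at 0.480, 0.545, 0.520 and 0.516, then 0.491, 0.357, 0.203 and 0.455, then 0.0903, 0.122, 0.104 and 0.156 CPM at the same days. In w1118 the drop of Cpr92F came by day 23, whereas in Hsp70-null 1 of 4 pools of day 23 lay in the day 7 range, and all pools of day 47 were below all of day 23. Exercised pools held Cpr92F at 0.534, 0.754, 0.389 and 0.452 CPM in w1118 and 0.519, 0.771, 0.681 and 0.364 CPM in Hsp70-null, and in trained pools it was at 0.137, 0.228, 0.215 and 0.169 CPM in w1118 and 0.174, 0.245, 0.139 and 0.371 CPM in Hsp70-null. The change of Cpr92F between days 7 and 23 was −2.45 in w1118 (edgeR adjusted p = 8.16e-06) and −0.45 in Hsp70-null (edgeR adjusted p = 0.340). The difference between these changes was 2.01 and just missed the threshold (edgeR adjusted p = 0.0584).

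Among the abundant members the falls were smaller. In w1118 pools Cpr65Au was at 405, 377, 307 and 299 CPM at day 7, 384, 482, 406 and 379 CPM at day 23 and 279.7, 316, 243 and 86.2 CPM at day 47. In Hsp70-null pools Cpr65Au was at 358, 347, 291 and 358, then 341, 279, 261 and 268, then 232, 213, 219 and 254 CPM at the same days. Replicate 4 of w1118 at day 47 was the lowest of the 40 libraries, and days 7 and 47 overlapped in w1118 but not in Hsp70-null. After exercise at day 7, Cpr65Au was at 323, 363, 447 and 402 CPM in w1118 and 297, 413, 352 and 302 CPM in Hsp70-null, and in trained pools it was at 272, 273, 423 and 313 CPM in w1118 and 251, 252, 266 and 283 CPM in Hsp70-null. Cpr65Au (3L, 6131242 to 6132109, minus strand) changed from day 7 to 47 by −0.59 in w1118 and −0.56 in Hsp70-null (edgeR adjusted p = 0.0282 and 0.0455). In w1118 leaving out w1118 day 7 replicates 1 or 2 or w1118 day 47 replicate 4 ended the age call (adjusted p from 0.0711 to 0.102), and in Hsp70-null leaving out Hsp70-null day 7 replicates 1, 2 or 4 or Hsp70-null day 47 replicates 1, 2, 3 or 4 ended the age call (adjusted p from 0.0598 to 0.102).

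In w1118 pools Cpr73D was at 78.4, 69.8, 60.3 and 57.7 CPM at day 7, 43.0, 33.1, 63.4 and 46.1 CPM at day 23 and 51.0, 44.9, 44.7 and 25.6 CPM at day 47. In Hsp70-null pools Cpr73D was at 85.5, 74.8, 68.2 and 75.2, then 61.1, 39.5, 45.9 and 38.9, then 47.7, 35.0, 32.6 and 41.6 CPM at the same days. All day 47 pools of Cpr73D were below all day 7 pools of their strain. Exercise at day 7 gave Cpr73D levels of 55.0, 72.8, 72.7 and 55.6 CPM in w1118 and 66.6, 64.7, 70.3 and 60.9 CPM in Hsp70-null, and in trained pools it was at 30.1, 30.3, 56.4 and 46.0 CPM in w1118 and 31.3, 26.3, 40.8 and 46.8 CPM in Hsp70-null. The change from day 7 to 47 was a log2 fold change of −0.95 (SE 0.21, edgeR adjusted p = 0.00114) in Hsp70-null, and −0.68 in w1118 (edgeR adjusted p = 0.0119), where leaving out w1118 day 47 replicate 4 ended the age call (adjusted p = 0.0700). Cpr73D (3L, 16939100 to 16957689, minus strand) shares 9.7% of its exon bases with Ogdh on the opposite strand. Ogdh had 3062096 reads against 56101 of Cpr73D.

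In w1118 pools Cpr49Ae was at 39.4, 32.1, 37.3 and 42.0 CPM at day 7, 25.6, 33.2, 25.4 and 27.8 CPM at day 23 and 29.4, 12.6, 31.0 and 13.5 CPM at day 47. In Hsp70-null pools Cpr49Ae was at 28.5, 31.1, 22.0 and 23.3, then 14.7, 26.7, 19.7 and 25.3, then 8.40, 12.7, 11.03 and 13.9 CPM at the same days. Cpr49Ae (2R, 12402216 to 12405108, plus strand) fell to its lowest level in old Hsp70-null legs, and 2 w1118 pools of day 47 fell as far. For exercised flies Cpr49Ae read 38.2, 38.2, 42.0 and 51.5 CPM in w1118 and 35.7, 40.1, 33.0 and 31.7 CPM in Hsp70-null, and in trained pools it was at 15.4, 23.0, 36.1 and 32.3 CPM in w1118 and 32.3, 22.8, 25.2 and 19.1 CPM in Hsp70-null. Its change from day 7 to 47 was −1.19 in Hsp70-null and −0.80 in w1118 (edgeR adjusted p = 0.000621 and 0.0112), and in w1118 leaving out w1118 day 47 replicates 2 or 4 ended the age call (adjusted p from 0.0597 to 0.0598).

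Cpr67B and Cpr57A held the most even levels among the 6 highest members. In w1118 pools Cpr67B was at 81.4, 71.1, 73.8 and 73.6 CPM at day 7, 61.9, 64.2, 72.0 and 70.4 CPM at day 23 and 99.5, 75.7, 100.5 and 57.2 CPM at day 47. In Hsp70-null pools Cpr67B was at 109, 74.7, 95.3 and 106, then 64.1, 57.0, 68.6 and 79.4, then 67.0, 66.8, 75.7 and 76.1 CPM at the same days. No pool was under 47.9 CPM or over 114 CPM. Cpr67B after exercise was at 86.6, 83.0, 83.0 and 78.5 CPM in w1118 and 96.9, 114, 110 and 95.1 CPM in Hsp70-null, and in trained pools it was at 47.9, 52.7, 85.7 and 79.6 CPM in w1118 and 77.9, 49.4, 97.9 and 86.6 CPM in Hsp70-null. The 1 call of Cpr67B was a fall from day 7 to 23 in Hsp70-null (log2 fold change −0.52, edgeR adjusted p = 0.0415), with overlap, and leaving out Hsp70-null day 7 replicates 1 or 4 or Hsp70-null day 23 replicates 1, 2 or 3 ended the age call (adjusted p from 0.0759 to 0.120).

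In w1118 pools Cpr57A was at 30.8, 26.8, 29.5 and 27.7 CPM at day 7, 31.6, 35.5, 32.3 and 27.3 CPM at day 23 and 36.6, 39.3, 35.1 and 25.4 CPM at day 47. In Hsp70-null pools Cpr57A was at 32.9, 29.9, 34.4 and 39.05, then 34.1, 30.5, 29.5 and 29.7, then 34.7, 35.2, 29.8 and 35.1 CPM at the same days. The levels of Cpr57A, whose reads are shared with the odorant-binding protein gene Obp57d, overlapped between all ages in each strain. Exercised pools held Cpr57A at 23.8, 26.6, 26.9 and 27.5 CPM in w1118 and 31.8, 36.3, 35.9 and 28.6 CPM in Hsp70-null, and in trained pools it was at 23.2, 23.1, 33.9 and 26.4 CPM in w1118 and 25.8, 21.8, 27.6 and 29.2 CPM in Hsp70-null. No age change of Cpr57A was called, with log2 fold changes from day 7 to 47 of 0.25 in w1118 and −0.01 in Hsp70-null (edgeR adjusted p = 0.102 and 0.938).

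A few members rose. Besides Cpr66D (log2 fold change from day 7 to 47 of 1.30 in w1118 and 1.66 in Hsp70-null, edgeR adjusted p = 5.34e-09 and 9.76e-11), Cpr49Aa (1.13) and Cpr51A (2.71) rose in w1118, with overlap for Cpr51A. The same change in Hsp70-null was 0.55 and 0.98 and was not called (edgeR adjusted p = 0.129 and 0.204). Whether the strains differed in these changes was tested and not called (edgeR adjusted p = 0.451 and 0.261). Cpr78E and Cpr50Ca were called higher in w1118 with overlap. For Cpr78E leaving out w1118 day 7 replicates 2 or 4 or w1118 day 47 replicates 3 or 4 ended the age call (adjusted p from 0.0633 to 0.0789), and for Cpr50Ca leaving out w1118 day 7 replicates 1, 2, 3 or 4 or w1118 day 47 replicates 1 or 3 ended the age call (adjusted p from 0.0525 to 0.0904). In Hsp70-null, Cpr76Bd (1.41) and Cpr62Bc (1.00) rose with no overlap.

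Whether the strains aged alike was tested as the difference between their changes. Between days 7 and 47, 5 members (14.7%) were called, against 1.64% of all features (1.16% higher and 0.479% lower), and all 5 had a change that was more positive, or less negative, in Hsp70-null: Cpr62Bc, Cpr62Bb, Cpr64Ac, Cpr76Bd and Cpr64Aa. The count was 3 in fits without the libraries with testis markers, without those with photoreceptor markers, with no expression filter or when the comparison was fitted on its own groups, and 2 without w1118 day 7 replicate 1 or Hsp70-null day 47 replicate 1. It was 3 without w1118 day 47 replicate 3 or Hsp70-null day 7 replicates 2 or 4. Between days 7 and 23 no member was called by edgeR (8 had an unadjusted p under 0.05, DESeq2 called 0, and of all features 0.139% were called higher and 0.0927% lower, 0.232% in all).

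The neighbours Cpr62Bb (3L, 1832636 to 1835164, minus strand) and Cpr62Bc (3L, 1840281 to 1842084, minus strand) were both among the 5. In w1118 pools Cpr62Bb was at 209, 191, 148 and 147 CPM at day 7, 85.6, 96.0, 83.6 and 75.8 CPM at day 23 and 77.6, 84.8, 83.1 and 57.2 CPM at day 47. In Hsp70-null pools Cpr62Bb was at 194, 163, 139 and 128, then 136, 97.7, 90.0 and 105, then 218, 184, 176 and 186 CPM at the same days. In w1118 all pools of days 23 and 47 were below all of day 7. In Hsp70-null day 23 overlapped day 7, and the 4 pools of day 47 were at 176 CPM or above, in the upper part of the day 7 range or over it. After exercise at day 7, Cpr62Bb was at 153, 188, 173 and 173 CPM in w1118 and 154, 179, 141 and 141 CPM in Hsp70-null, and in trained pools it was at 74.8, 71.6, 86.2 and 75.7 CPM in w1118 and 86.4, 93.7, 102 and 123 CPM in Hsp70-null. The test of the difference gave 1.49 (log2 scale, SE 0.20, edgeR adjusted p = 4.71e-05). At day 47 itself the strains differed by a log2 fold change of 1.34 (SE 0.14, edgeR adjusted p = 1.21e-08), with no overlap.

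In w1118 pools Cpr62Bc was at 4.62, 3.81, 3.21 and 3.40 CPM at day 7, 0.951, 1.49, 1.803 and 1.33 CPM at day 23 and 1.03, 0.801, 0.614 and 0.365 CPM at day 47. In Hsp70-null pools Cpr62Bc was at 4.49, 2.95, 2.51 and 1.55, then 2.53, 1.68, 1.99 and 2.20, then 6.12, 5.37, 5.49 and 6.05 CPM at the same days. The 4 Hsp70-null pools of day 47 had the highest levels of Cpr62Bc among untreated pools, and of the treated pools only exercised w1118 replicate 2 reached their range. Exercise at day 7 gave Cpr62Bc levels of 2.76, 5.50, 4.62 and 3.31 CPM in w1118 and 2.22, 2.20, 2.53 and 2.23 CPM in Hsp70-null, and in trained pools it was at 0.718, 1.04, 1.63 and 1.18 CPM in w1118 and 2.62, 1.84, 1.87 and 2.72 CPM in Hsp70-null. The difference in change was 3.41 (SE 0.40, edgeR adjusted p = 4.07e-06), and the strain difference at day 47 was a log2 fold change of 3.02 (SE 0.30, edgeR adjusted p = 2.26e-09). It was called lower in exercised Hsp70-null flies (−0.82) and higher in trained ones (0.98). Among exercised flies leaving out w1118 replicates 2 or 3 or Hsp70-null replicates 1, 2, 3 or 4 ended the strain call (adjusted p from 0.0620 to 0.128), and among trained flies leaving out w1118 replicate 1 or Hsp70-null replicate 4 ended the strain call (adjusted p from 0.0502 to 0.0675). A strain difference in the exercise or the training effect was not called (edgeR adjusted p = 0.688 and 1.00). The rise in Hsp70-null from day 23 to 47 was called for both, at 0.83 for Cpr62Bb and 1.45 for Cpr62Bc (edgeR adjusted p = 0.000476 and 0.00201), in a comparison where 3.6% of features were called.

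The remaining 3 calls were each lost in some fits without 1 library. Cpr64Ac (5.11, edgeR adjusted p = 0.0147) fell in w1118 and was near 0 in Hsp70-null at every age. There leaving out w1118 day 7 replicate 1, w1118 day 47 replicate 3 or Hsp70-null day 47 replicate 1 ended the interaction call (adjusted p from 0.0512 to 0.0662). Cpr76Bd (1.32, edgeR adjusted p = 0.0211) changed from day 7 to 47 by 1.41 in Hsp70-null and 0.09 in w1118, and leaving out w1118 day 7 replicate 1, Hsp70-null day 7 replicates 2 or 4 or Hsp70-null day 47 replicates 1 or 2 ended the interaction call (adjusted p from 0.0517 to 0.0753). Cpr64Aa (2.08, edgeR adjusted p = 0.0484) fell less in Hsp70-null, and leaving out w1118 day 7 replicates 1, 2 or 3, Hsp70-null day 7 replicates 1, 2, 3 or 4, w1118 day 47 replicates 1, 2 or 3 or Hsp70-null day 47 replicates 1, 3 or 4 ended the interaction call (adjusted p from 0.0589 to 0.139).

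**Figure D4:**
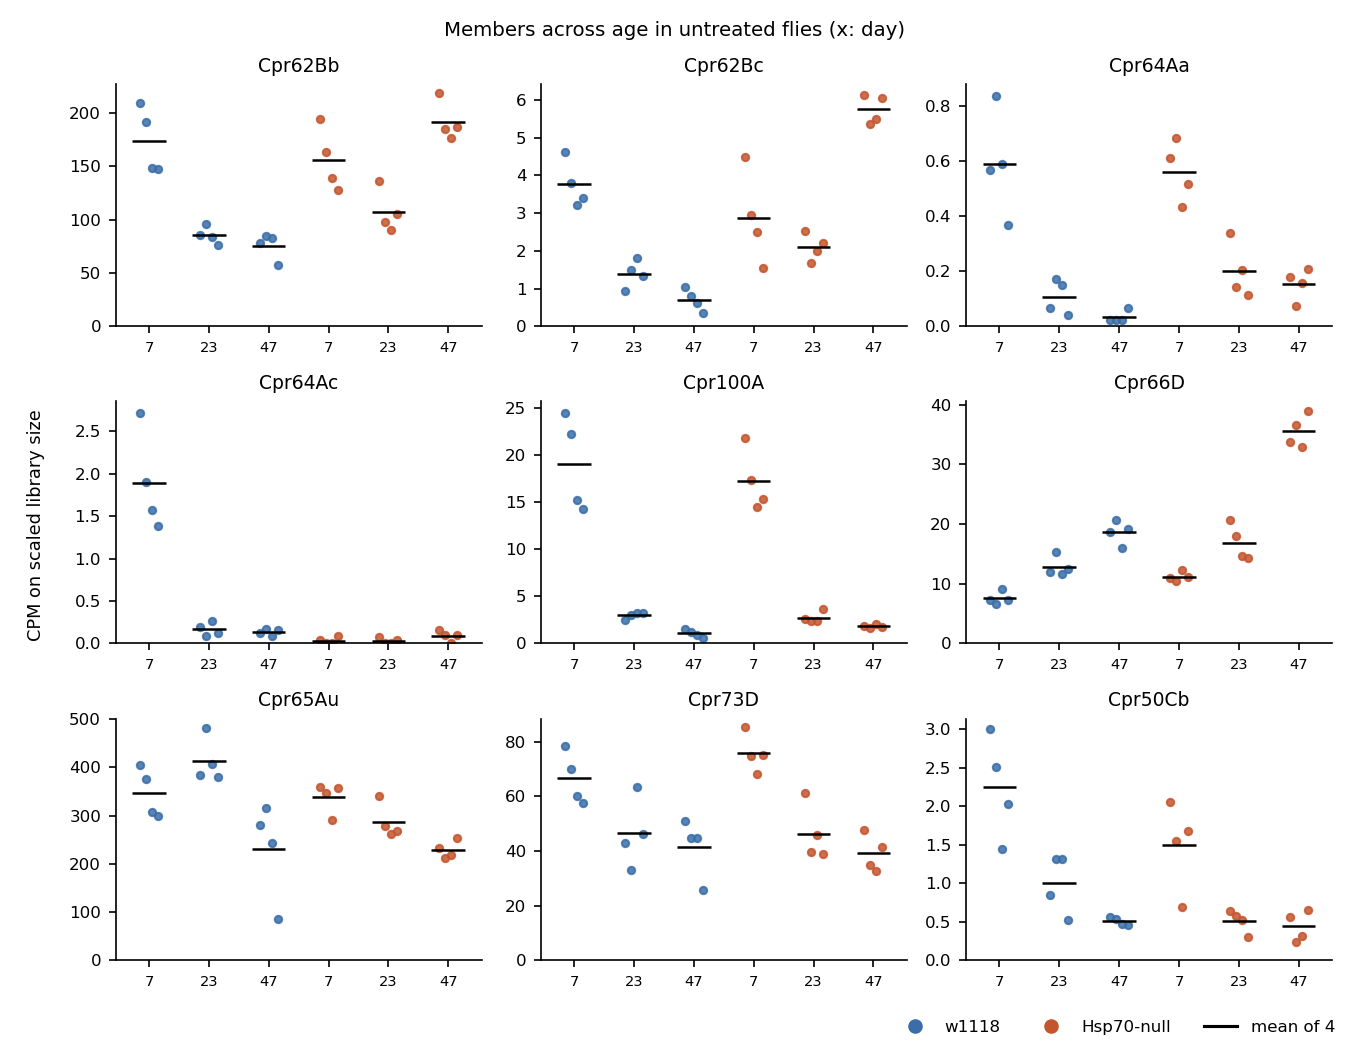
CPM by day in untreated pools for 9 members on linear axes that start at 0, with w1118 in blue on the left, Hsp70-null in orange on the right and a line at the mean of 4 pools. Cpr62Bb and Cpr62Bc stay low at day 47 in w1118 and are high in Hsp70-null, Cpr100A falls in both and Cpr66D rises in both.

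Exercise for 2 h at day 7 and training to day 22 left no member called in either strain. With edgeR, 0 of 34 were called for exercise in w1118 (4 had an unadjusted p under 0.05, and 0.402% of all features were called, 0.309% higher and 0.0927% lower) and 0 in Hsp70-null (4, and 0.0464%, 0.0386% higher and 0.00773% lower). DESeq2 gave 0 in both. For training edgeR called 0 in w1118 (3 unadjusted, and 0% of features) and 0 in Hsp70-null (7 unadjusted, and 0.0464%, all of them lower), and DESeq2 called 0 and 1. The lowest p-value for exercise was that of Cpr76Bd in w1118, at 0.719 ± 0.173 CPM against 1.24 ± 0.215 CPM (SD, n = 4 each; log2 fold change −0.78, edgeR adjusted p = 0.138). The lowest in exercised Hsp70-null was that of Cpr47Ee, at 5.09 ± 0.447 against 7.46 ± 1.78 CPM (−0.55, edgeR adjusted p = 0.110). For training in w1118 it was that of Cpr60D (−0.46, edgeR adjusted p = 0.698), and in Hsp70-null that of Cpr72Ec (5.99, edgeR adjusted p = 0.224), where 1 of the 4 trained pools was at 108 CPM and the others at 0.204 to 1.24 CPM. The 2 tests of a strain difference in these effects called 0 members (0 and 3 with an unadjusted p under 0.05, DESeq2 0 and 1, background 8.27%, with 0.379% higher and 7.89% lower, and 0%).

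Levels of Cpr72Ec and Cpr49Ag moved with photoreceptor markers from library to library. Cpr72Ec (3L, 16365894 to 16367340, minus strand), a corneal lens protein, had day 7 levels of 13.3, 3.63, 7.02 and 104 CPM in Hsp70-null pools and 2.51, 1.58, 1.49 and 2.25 CPM in w1118 pools. Trained Hsp70-null pools had 108, 0.204, 0.347 and 1.24 CPM and untreated ones of day 23 1.09, 0.536, 0.0406 and 0.0379 CPM. Both values over 100 CPM came from libraries where the 14 photoreceptor genes summed to 8022 and 13830 CPM, against a median of 247 CPM over all libraries. The next highest Cpr72Ec level, 25.0 CPM, was in the library with the next highest sum, 3430 CPM (exercised Hsp70-null replicate 1).

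Over 40 libraries, log2 of Cpr72Ec CPM plus 0.1 followed log2 of the photoreceptor sum with a Pearson's r of 0.936 and a Spearman's rho of 0.907 (permutation p = 1e-05 for each, the smallest that 100000 resamples can give, and 2e-05 adjusted over the 4 members examined). Without the 2 farthest libraries r was 0.902, and without the 3 libraries with high photoreceptor markers 0.887. It was 0.937 to 0.982 within the 4 sets of 8 libraries of 1 strain at day 7 or day 23. Cpr49Ag (2R, 12407793 to 12408523, plus strand) gave an r of 0.880 and a rho of 0.848 (permutation p = 1e-05 each, 2e-05 adjusted), 0.840 without the 2 farthest and 0.888 to 0.951 within the sets. For Cpr76Bc and Cpr66D over the 40 libraries, r was 0.235 and −0.240, rho 0.0758 and −0.309, with adjusted permutation p-values of 0.146 and 0.146 for r and 0.639 and 0.0712 for rho. Without the 2 farthest libraries r was −0.143 and −0.254. Within the sets r of Cpr76Bc was 0.129 and −0.0213 in w1118 at days 7 and 23 and 0.714 and 0.920 in Hsp70-null, and r of Cpr66D was −0.310 to 0.242. The resamples shuffled all 40 libraries freely, so these p-values take no account of differences between groups. The 4 members were chosen after their values were seen, and the adjustment over 4 does not cover that choice.

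In w1118 pools Cpr49Ag was at 0.608, 0.232, 0.157 and 0.552 CPM at day 7, 0.557, 0.256, 0.0376 and 0 CPM at day 23 and 0.0246, 0, 0.0227 and 0.0228 CPM at day 47. In Hsp70-null pools Cpr49Ag was at 0.523, 0.0908, 0.477 and 3.05, then 0.0378, 0.179, 0 and 0, then 0.0226, 0, 0 and 0.235 CPM at the same days. Most pools of days 23 and 47 held Cpr49Ag at or near 0, and in Hsp70-null the ages overlapped. For exercised flies Cpr49Ag read 1.02, 1.33, 0.243 and 0.251 CPM in w1118 and 1.67, 0.661, 0.535 and 0.0910 CPM in Hsp70-null, and in trained pools it was at 0.0342, 0.163, 0.0430 and 0 CPM in w1118 and 2.01, 0, 0 and 0 CPM in Hsp70-null. Its fall from day 7 to 47 was called in both strains (log2 fold change −4.15 and −3.94, edgeR adjusted p = 0.0428 and 0.0499). It rested on 36 reads against 3, a ratio of 21.8 per scaled library size with a 95% binomial counting interval of 6.88 to 111 in w1118, and on 96 against 10 reads in Hsp70-null. The photoreceptor sum was also lower at day 47, with a range of 193 to 448 CPM at day 7 and 70.7 to 154 CPM at day 47 in w1118, and of 374 to 8022 and 82.0 to 1231 CPM in Hsp70-null, where the ranges overlap. Its part in the result was not tested. The w1118 call was lost without any 1 of the 8 libraries (adjusted p from 0.0508 to 0.111), and the Hsp70-null call without Hsp70-null day 7 replicates 1, 3 and 4 and Hsp70-null day 47 replicates 1, 2 and 3 (adjusted p from 0.0522 to 0.225).

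The strain calls of Cpr72Ec rested on the same libraries. At day 7 the call (log2 fold change 4.03, SE 1.39, edgeR adjusted p = 0.0340) became 2.02 without the libraries with high photoreceptor markers, and was no longer called (edgeR adjusted p = 0.140), and leaving out w1118 replicates 1, 2, 3 or 4 or Hsp70-null replicate 4 ended the strain call (adjusted p from 0.0715 to 0.274). Among trained flies (log2 fold change 5.18, SE 1.48, edgeR adjusted p = 0.0139) the sign turned to −0.34 without Hsp70-null replicate 1 (edgeR adjusted p = 0.881), and without w1118 replicate 4 the edgeR adjusted p was 0.0519. Cpr72Ec was also called lower with age in Hsp70-null, at −6.20 from day 7 to 23 and −5.86 from day 7 to 47 (edgeR adjusted p = 0.00893 and 0.00457). The photoreceptor sum there was 374 to 8022, 106 to 481 and 82.0 to 1231 CPM at days 7, 23 and 47, and without Hsp70-null day 7 replicate 4 the 2 changes were −4.20 and −3.85, both still called. For Cpr76Bc (3L, 19520945 to 19527272, plus strand) the highest libraries were 2 of the same. It was at 2.62 CPM in Hsp70-null day 7 replicate 4 and 3.11 CPM in trained Hsp70-null replicate 1. In exercised Hsp70-null replicate 1, the other library with high photoreceptor markers, Cpr76Bc was at 0.259 CPM. It was at no more than 0.519 CPM in the 17 Hsp70-null libraries without high photoreceptor markers, against 0.297 to 1.46 CPM in w1118. The 3 untreated strain comparisons gave log2 fold changes of −0.39, −1.97 and −0.64 for it (edgeR adjusted p = 0.743, 0.0672 and 0.634). Cpr49Ab also varied widely (lowest 0.0929, median 3.29, highest 36.8 CPM), and its high libraries were others: 36.8 CPM in Hsp70-null day 7 replicate 3 and 30.8 CPM in w1118 day 47 replicate 2.

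**Figure D5:**
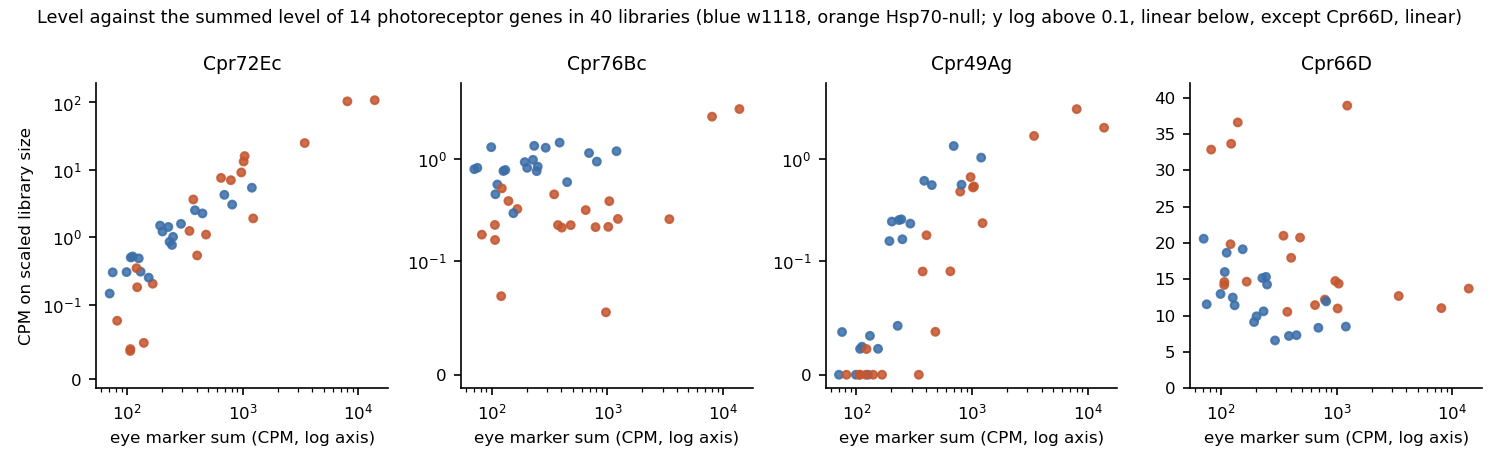
CPM of Cpr72Ec, Cpr76Bc, Cpr49Ag and Cpr66D in each of 40 libraries against the summed CPM of 14 photoreceptor genes on a log axis, with w1118 in blue and Hsp70-null in orange. The y axis is logarithmic above 0.1 CPM and linear below, except for Cpr66D, where it is linear. Cpr72Ec and Cpr49Ag climb with the marker sum over its whole range, and Cpr66D does not.

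Genes of cuticle outside the family were counted for comparison. Of 43 other structural cuticle genes (Tweedle, obstructor and Vajk genes and others) 16 were tested, and 7 were called between the strains at each age, 6 of them higher in Hsp70-null each time (background 25.8%, 17.8% and 19.4%). Gasp, an obstructor-type chitin-binding protein, was at 43.4 ± 6.69 against 22.1 ± 2.84 CPM at day 7 (SD, n = 4 each; log2 fold change 0.97, edgeR adjusted p = 3.74e-07), and obst-E at 26.3 ± 4.53 against 10.6 ± 1.43 CPM (1.32, edgeR adjusted p = 3.75e-06). Vajk3 was the lower one, with −1.73, −2.44 and −2.37 at the 3 ages. The median over the 16 was 0.53, 0.50 and 0.67.

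Of 8 tested ZP-domain proteins of the apical matrix, 6, 5 and 6 were called at days 7, 23 and 47 (2, 3 and 3 higher and 4, 2 and 3 lower), against 25.8%, 17.8% and 19.4% of all features. Miniature (m) was lower in Hsp70-null, with log2 fold changes of −3.91, −2.34 and −3.51 (edgeR adjusted p = 3.08e-10, 1.91e-06 and 1.73e-09), and zye was higher (3.19, 3.20 and 2.34). A list of 19 genes of chitin degradation and chitinase-like genes held Cht, Hexo and fdl genes and Idgf1 to Idgf6, so not only chitin-degrading enzymes. Of these, 4, 3 and 5 were called (3, 2 and 4 higher, and 1 lower each time). Idgf6 had the lowest p of those called higher at day 7 (log2 fold change 0.57, edgeR adjusted p = 0.000502). The chitinase gene Cht10 was lower (log2 fold change −2.51, −3.89 and −3.42). At day 23 it was at 4.66 ± 0.471 against 69.0 ± 4.13 CPM, with an edgeR adjusted p of 1.795e-16. Of 14 genes of chitin synthesis, export and order, 2, 3 and 4 were called (0, 1 and 2 of them higher). A list of 13 genes for tanning also held the prophenoloxidase genes PPO1, PPO2 and PPO3. Of these 13 genes 4, 4 and 5 were called (3, 2 and 3 higher), and of 9 wax and hydrocarbon genes 1, 1 and 0 (1, 0 and 0 higher).

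With age, every called gene of the tanning list fell. Which cells these falls come from was not tested. From day 7 to 47, 7 of 13 were called in w1118 and 8 of 13 in Hsp70-null, and all were lower (medians −0.68 and −0.77, background 18.5% and 14.9% for lower calls). PPO1, a prophenoloxidase gene whose product oxidises phenols for melanin, was at 23.7 ± 11.8 against 128 ± 10.1 CPM for day 47 against day 7 in w1118 (log2 fold change −2.44, edgeR adjusted p = 2.36e-08). Ddc, the dopa decarboxylase gene, was called in Hsp70-null (−0.64, edgeR adjusted p = 6.38e-05). Of the 16 other structural genes 6 were called in w1118 over these days, 0 higher and 6 lower. Of all features 37.6% were called there (19.2% higher and 18.5% lower), so the number called was near that share. In Hsp70-null 7 were called, 2 higher and 5 lower, against 28.9% (14% higher and 14.9% lower). Of 5 further proteins with the same motif and other names, only 1 passed the filter and it was called in none of the 19 comparisons. Corneal lens genes outside the family, Crys and retinin, were added after the values were seen, and retinin was at 153 CPM in Hsp70-null day 7 replicate 4 and 77.4 CPM in trained Hsp70-null replicate 1, the libraries where Cpr72Ec stood out. Crys was at 0.730 and 1.63 CPM in these, and its highest values were 9.92 CPM in exercised Hsp70-null replicate 2 and 9.80 CPM in Hsp70-null day 47 replicate 3.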

How the data were processed

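Legs of male flies were pooled in 40 samples, and polyadenylated RNA was sequenced with a kit that keeps the strand, per the labels' protocols. The authors deposited raw read counts per gene in 1 table. HISAT2 2.1.0, kallisto 0.44.0 and the build BDGP6 are named in the submitters' processing notes, and the counting tool, its annotation and its handling of reads that map to several places are not given in the sources used here. Coordinates are those of the Ensembl BDGP6.54 annotation, matched by FlyBase ID for 23851 of 23932 features, and promoter or protein sequences were not used here.

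From the deposited counts, edgeR 4.0.16 (R 4.3.3) fitted all 40 libraries in 1 quasi-likelihood model with a coefficient per group, TMM scaling, edgeR's default filter by group (12939 features tested, 34 of them members) and 30 residual degrees of freedom. The 19 comparisons were contrasts of this model, with Benjamini-Hochberg adjustment over all features tested and a threshold of 0.05. Standard errors were the log2 fold change divided by the root of F. Depth, in total counts, is given with the samples, and intervals on read ratios and limits for a count of 0 (3 counts) cover counting error only. Nothing in the labels says that pools came from separate cultures, so p-values measure the spread between these pools. No pair of replicates agreed within sampling noise (chi-square per degree of freedom 23.7 to 314 over 60 pairs). Statistical scripts were tested on simulated data.

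Members named with a value in every library are those called with 1 sign between strains at all 3 ages, those called from day 7 to 47 in both strains, and the 6 highest by CPM. The members and the gene lists were chosen with earlier results of these data known. Alternatives were other size factors, no filter, robust empirical Bayes, a block for the replicate number, DESeq2 1.42.0, fits of the compared groups alone and leaving out each library. Fits without libraries with high testis or photoreceptor markers, and the corneal lens list, were added after seeing the data. Same-numbered pools correlated above 0.1 in every pair in 2 of 15 comparisons (training in w1118, and strain among trained flies). Elsewhere at least 1 pair was at or below 0.1, as for training in Hsp70-null with 0.595, 0.316, 0.0245 and 0.124. This check cannot exclude that the numbers mark pairs there too.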

Additional observations from a re-analysis of the deposited data

Results flagged for a closer look

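Single pools stood far from the other 3 of their group in 27 of 298 sets of 4 values (9.06%). For normally distributed values chance gives about 1 in 20. CPM of low counts need not be so distributed, so an excess over chance cannot be read from this. Trained Hsp70-null replicate 1 was high for Cpr72Ec (108 CPM), Cpr51A (9.48 CPM), Cpr76Bc (3.11 CPM) and Cpr49Ag (2.01 CPM). Hsp70-null day 7 replicate 4 was high for Cpr72Ec (104 CPM), Cpr76Bc (2.62 CPM) and Cpr49Ag (3.05 CPM), and Cpr12A there was at 0.215 CPM. These are the libraries with the highest photoreceptor sums, 13830 and 8022 CPM. In Hsp70-null day 7 replicate 4, Cpr51A was at 3.05 CPM, the lowest of its group. Cpr12A had 5 reads there, against 3 in each other pool of the group. Exercised w1118 replicate 2 was high for Cpr97Eb (20.0 CPM) and Cpr64Ac (2.66 CPM) and low for Cpr60D (2.79 CPM). 

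The other pools were spread over 11 libraries. Exercised Hsp70-null replicate 3 had Cpr47Ef at 179.9 CPM and Cpr62Bc at 2.53 CPM. Trained Hsp70-null replicate 2 had Cpr49Ac at 3.26 CPM and Cpr78E at 0.204 CPM. Hsp70-null day 47 replicate 4 had Cpr72Ec at 1.90 CPM and Cpr49Ag at 0.235 CPM, with a photoreceptor sum of 1231 CPM. Replicate 1 of w1118 at day 23 had Cpr72Ec at 3.05 CPM and Cpr49Ab at 20.0 CPM, with a photoreceptor sum of 810 CPM. Each of these sums was the highest of its group, and their part was not tested. Replicate 2 of w1118 at day 47 had Cpr49Ab at 30.8 CPM and Cpr47Ea at 0.170 CPM. Cpr57A was at 29.8 CPM in Hsp70-null day 47 replicate 3 and Cpr78E at 0.262 CPM in Hsp70-null day 7 replicate 1. Exercised w1118 had Cpr51A at 0.979 CPM in replicate 1 and Cpr50Ca at 2.67 CPM in replicate 3. At day 7 untreated w1118 had Cpr49Ac at 1.21 CPM in replicate 3 and Cpr49Ab at 5.29 CPM in replicate 4.

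The change from day 7 to 47 differed between the strains in the test of that difference for 5 members. On the log2 scale the difference was 3.41 for Cpr62Bc, 1.49 for Cpr62Bb, 5.11 for Cpr64Ac, 1.32 for Cpr76Bd and 2.08 for Cpr64Aa. Outside the members, the pseudogene Lcp1Psi had 4 reads in 40 libraries.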

How the results depend on the processing

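Of the 131 called member fold changes reported, 130 kept their direction and call with RLE size factors, 129 with DESeq2, 127 with robust empirical Bayes, 125 with the replicate block, 118 without the libraries with high photoreceptor markers, 112 without those with high testis markers and 112 with no filter. In fits of the compared groups alone 88 did, 26 lost the call and 17 had no value, since the member did not pass the filter there. Leaving out 1 library at a time gave 887 kept calls, 200 lost ones and 1 changed sign. That was Cpr72Ec among trained flies, whose log2 fold change ran from −0.34 to 5.65 over these fits and was −0.35 without the libraries with high photoreceptor markers.

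Counts of called members moved by over 1.5 times in these cases, and the cause was not tested. With no filter the count was 3 for strain by age from day 7 to 47, 1 for strain by exercise and 4 for strain at all 3 ages. With the replicate block it was 1 for strain by age from day 7 to 23, and the block moved no other count that far. With DESeq2 it was 1 for training in Hsp70-null and 1 for strain by training. With the compared groups alone it was 3 for day 23 to 47 in w1118, 3 for day 7 to 23 in Hsp70-null, 3 for strain by age from day 7 to 47 and 4 for strain at all 3 ages. Without high testis markers it was 5 for day 23 to 47 in w1118 and 3 for strain by age from day 7 to 47, and without high photoreceptor markers 3 for the latter and 1 for strain by exercise.

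Leaving out 1 library gave 7 to 10 called members for strain at day 7 (7 without w1118 day 7 replicate 2 or 3), 9 to 14 among exercised flies (9 without w1118 replicate 3 or Hsp70-null replicates 1, 2 or 3) and 6 to 11 among trained flies (6 without Hsp70-null replicate 4). It gave 4 to 7 for day 23 to 47 in w1118 (4 without replicate 3 of either day, 5 without day 47 replicate 4), 6 to 10 for day 7 to 47 in both strains (6 without w1118 day 47 replicate 4), 2 to 6 for strain by age from day 7 to 47 and 0 to 1 for strain by exercise. A planned fit without libraries in which all testis markers summed to over 10 times their median left no library out and was not run. Depth limits members under 1 CPM, since a count of 0 allows up to 0.137 CPM in the shallowest library.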
